A study of Rattus norvegicus with 12 samples.

Results

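The BCL2 family genes described here are 10 genes of the intrinsic (mitochondrial) route to apoptosis, taken by symbol from a table of read counts for 34034 rat genes: the anti-apoptotic multi-domain members Bcl2, Bcl2l1 (Bcl-xL) and Mcl1, the pro-apoptotic multi-domain members Bax and Bak1, and the BH3-only members Bid, Bbc3 (PUMA), Bcl2l11 (BIM), Hrk (DP5) and Bad. All 10 were found, and all 10 passed the filter on low counts, as did 14324 genes in all. RNA was sequenced from INS-1E cells, a clonal rat insulinoma line used as a model of the pancreatic β-cell, in 4 groups of 3 libraries each: untreated cells; IL-1βlow cells, preconditioned for 72 h with IL-1β at 10 pg/ml; CYT cells, challenged for 16 h with IL-1β at 100 pg/ml together with IFN-γ at 5 ng/ml; and IL-1βlow + CYT cells, which received the preconditioning and then the challenge. The comparisons asked how the cytotoxic challenge moved each member, and whether prior exposure to the low concentration changed that response. As the cells are 1 clonal line, the spread below is between cultures of that line and not between animals.

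BCL2 family proteins decide at the outer mitochondrial membrane whether a stressed cell releases cytochrome c and activates caspases. BAX and BAK form the pores, BCL2, BCL-xL and MCL1 hold them in check, and the BH3-only proteins sense damage and either neutralise the guardians or activate the pore formers directly. In β-cells exposed to inflammatory cytokines, DP5 and PUMA are established mediators of death, acting downstream of nitric oxide and endoplasmic reticulum stress. All values here are transcript levels, which carry no information on cleavage, phosphorylation or protein turnover.

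Upstream sequences of 8 of the 10 members were matched by symbol in RefSeq (build GRCr8). Bax and Bbc3 had no match and were not searched. There were 4 start sites for Bcl2l1 and 1 for each of the other matched members, and the 250 bases before the start were read. The sequences for Hrk, Bid and Bcl2 are shown because these are the matched genes whose response to CYT differed most between preconditioned and naive cells, and the outermost start of Bcl2l1 is shown as an anti-apoptotic gene that moved with the pro-apoptotic ones. Each is printed 5′ to 3′ on the strand of its gene, and capitals mark a match to one of the motifs named with them.
Hrk, chr12:44070562-44070811, minus strand: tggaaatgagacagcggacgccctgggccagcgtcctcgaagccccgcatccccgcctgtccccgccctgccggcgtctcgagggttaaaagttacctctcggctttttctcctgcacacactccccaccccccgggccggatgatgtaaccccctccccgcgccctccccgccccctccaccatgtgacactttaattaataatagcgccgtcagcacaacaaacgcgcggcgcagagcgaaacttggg
Bid, chr4:155808320-155808569, minus strand: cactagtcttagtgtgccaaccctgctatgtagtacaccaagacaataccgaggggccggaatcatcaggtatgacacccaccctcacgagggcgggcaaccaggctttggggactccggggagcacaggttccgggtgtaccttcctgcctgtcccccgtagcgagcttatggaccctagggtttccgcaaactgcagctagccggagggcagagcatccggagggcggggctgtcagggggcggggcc
Bcl2, chr13:23366901-23367150, minus strand: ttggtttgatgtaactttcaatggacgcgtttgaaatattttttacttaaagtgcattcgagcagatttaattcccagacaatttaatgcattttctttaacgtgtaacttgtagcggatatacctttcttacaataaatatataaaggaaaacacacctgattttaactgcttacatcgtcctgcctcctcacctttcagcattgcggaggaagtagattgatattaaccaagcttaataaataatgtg
Bcl2l1, chr3:161764776-161765025, minus strand: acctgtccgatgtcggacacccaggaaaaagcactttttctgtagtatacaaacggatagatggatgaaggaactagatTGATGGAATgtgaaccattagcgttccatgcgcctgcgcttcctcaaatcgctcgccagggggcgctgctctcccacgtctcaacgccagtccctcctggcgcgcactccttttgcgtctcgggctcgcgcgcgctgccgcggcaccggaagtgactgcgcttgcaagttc

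Both strands of these windows were searched for AP-1 (TGANTCA), the GAS element (TTCNNNGAA), the ATF4-C/EBP composite (TGATGNAAT), FOXO (TGTTTAC) and an NF-κB consensus. The windows of Hrk, Bid, Bcl2 and Bak1 held no match to any of these letters, which says nothing of binding elsewhere. The Bcl2l1 window above held the ATF4-C/EBP composite TGATGGAAT, beginning 171 bases before the start, a motif found in 0.94% of all 33469 windows of the same length. The windows of 2 other, overlapping Bcl2l1 starts shared the same pair of GAS matches, and Bad held 1 GAS match, against 7.67% of all windows. FOXO letters occurred upstream of Bcl2l11 and Bad (3.21% of all windows) and the NF-κB consensus upstream of Mcl1 (6.33%). AP-1 (6.34%) was found in none of the matched members' windows, which do not include Bax and Bbc3. No 2 matches overlapped within a window. The Bcl2 window stood apart in base composition, with 33.6% G and C against a median of 51.2% over all windows and 62.8% and 63.6% for Bid and Hrk.

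Libraries held 15812640 to 20246806 counts, and levels are given as CPM, counts divided by the TMM-scaled library size, which removes differences in depth and composition between libraries but not in gene length, so a level is read between groups and not between genes. A gene is said to have risen or fallen where edgeR's quasi-likelihood test gave a Benjamini-Hochberg adjusted p under 0.01 over all genes tested. It passed the thresholds where its log2 fold change was also above 1 in size (0.6 for IL-1βlow vs. untreated). The cells carried all 8 β-cell markers listed, among them Ins1, Ins2, Iapp, Pdx1, Nkx6-1, Mafa and Slc2a2, in every library, and Ptprc (leukocytes) and Cpa1 (acinar cells) were at 0 in every library. Summed over the 8 markers, the level was 32984.6 to 39388.6 CPM in untreated, 28837 to 33839.5 in IL-1βlow, 10663 to 10969.1 in CYT and 15523.5 to 20131.9 in IL-1βlow + CYT libraries. The β-cell markers thus moved with the groups compared below: 7 of 8 fell with CYT, and 7 of 8 were higher in IL-1βlow + CYT than in CYT cells. Over all genes tested 49.7% and 36.3% had an adjusted p under 0.01 in these comparisons, in either direction. Of 8 markers of other islet and non-islet cells, 3 were detected in every library, and their sum, nearly all of it Gcg (glucagon), was 186.7 to 367.9 CPM in untreated, 157 to 260.6 in IL-1βlow, 26.1 to 65.7 in CYT and 75.4 to 152.8 in IL-1βlow + CYT cells. Their part in the results was not tested. In bulk RNA, loss of some cells and less transcript in each cell cannot be told apart.

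The CYT challenge moved 7 of the 10 members: 6 rose, 1 fell, and 5 passed the thresholds (Hrk, Bbc3, Bid and Bax higher, Bcl2 lower). Over all genes tested 49.7% had an adjusted p under 0.01 in this comparison and 21.6% also passed the fold minimum, and against these shares the members' counts are a description of 10 genes, with no test of the set. The BH3-only members divided sharply. Hrk, Bbc3 and Bid rose between 4.46- and 6.44-fold, whereas Bcl2l11 and Bad did not pass the test and had negative log2 fold changes. Among the 5 multi-domain members 3 rose and 1 fell, and the largest change was less than that of any of the 3 BH3-only genes that rose. The median log2 fold change was 2.16 over the 5 BH3-only members, 0.60 over the 5 multi-domain members and -0.04 over all genes tested.

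**Figure D1:**
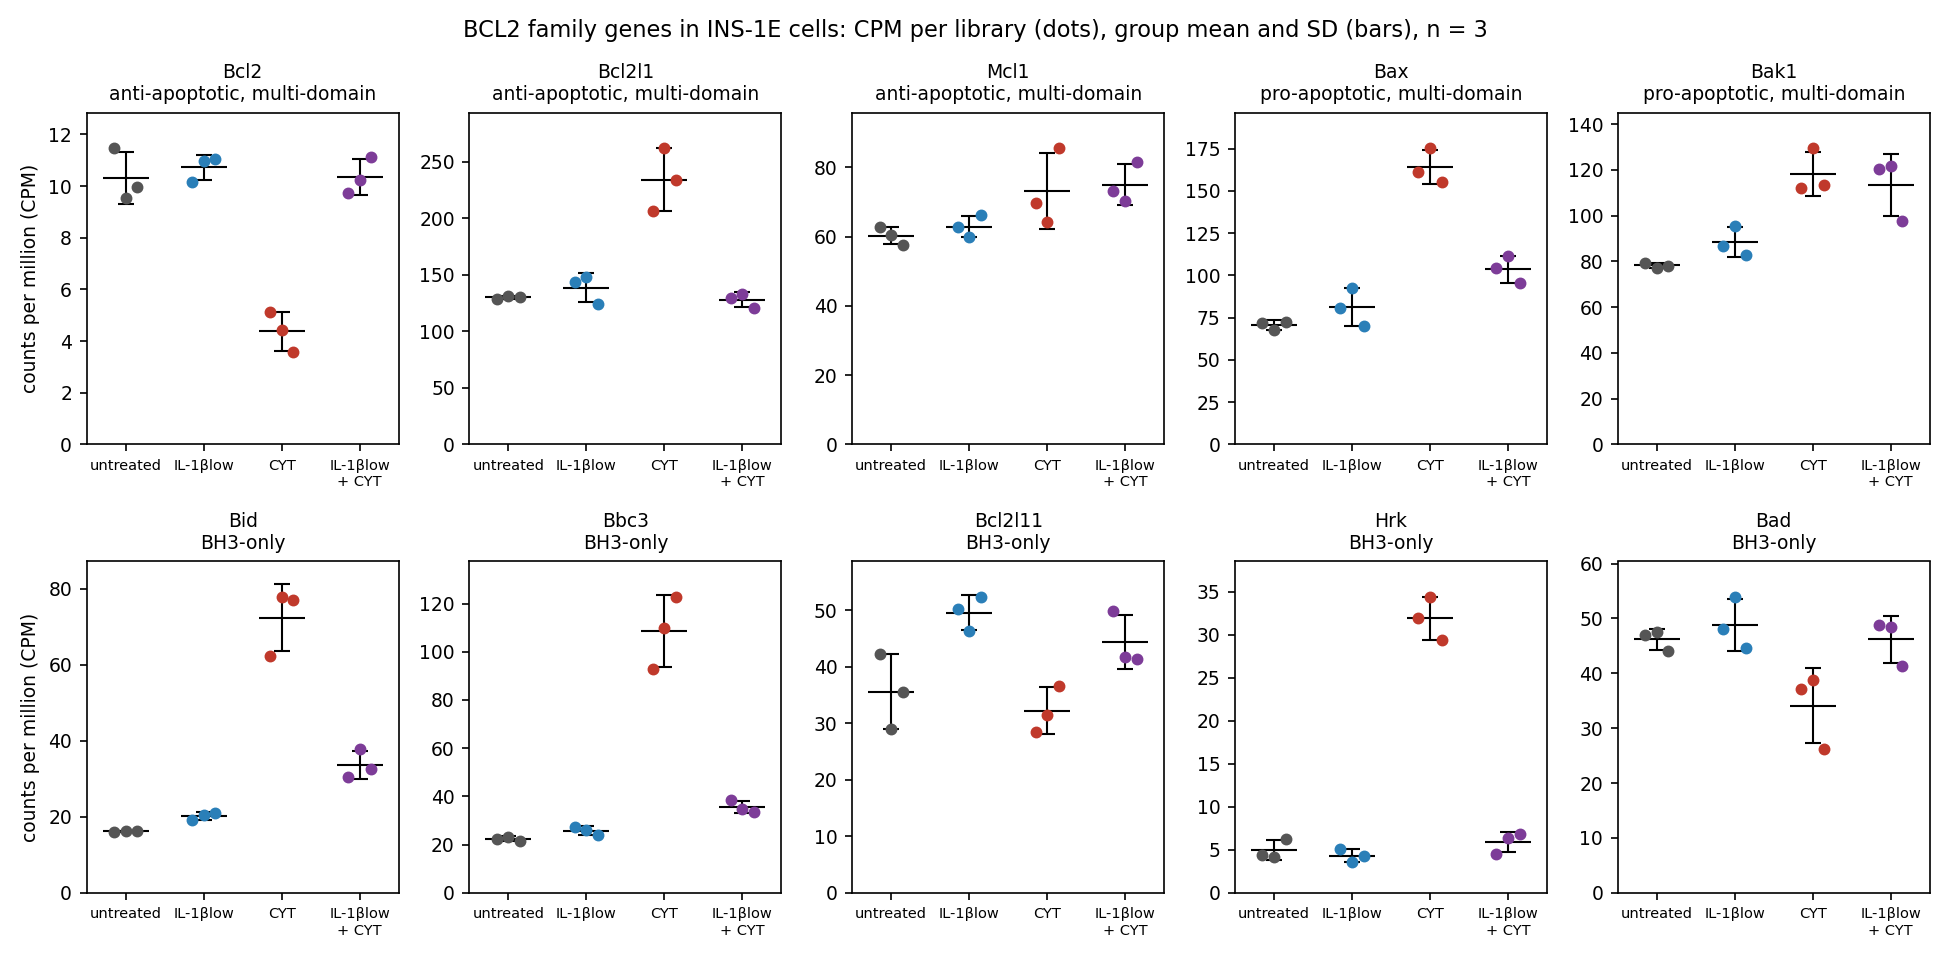
Level of each BCL2 family gene in CPM (vertical axes from 0, 1 scale per gene) in the 12 libraries; dots are single libraries, horizontal bars the mean and vertical bars the SD of 3 libraries in each group. In CYT cells Hrk (29.4 to 34.4 CPM), Bbc3 and Bid stood far above the 3 other groups and Bcl2 (3.58 to 5.11 CPM) far below them.

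Hrk, a BH3-only protein first known from neurons deprived of survival factors, had the largest change. It was at 4.41, 4.20 and 6.26 CPM in untreated libraries and at 32.0, 34.4 and 29.4 CPM in CYT libraries. Every CYT library was above every untreated one, with a log2 fold change of 2.69 (SE 0.19, adjusted p = 2.2e-08). In preconditioned cells the same challenge left Hrk at 4.56, 6.42 and 6.78 CPM, a range that overlapped the untreated libraries and was below every CYT library. The log2 fold change of IL-1βlow + CYT vs. CYT was -2.43 (SE 0.18, adjusted p = 1.9e-07), and that of IL-1βlow + CYT vs. untreated was 0.26 (SE 0.20, adjusted p = 0.38). IL-1βlow alone gave 5.08, 3.56 and 4.26 CPM, within or just below the untreated range. Hrk was the least counted member outside the CYT group, with 58 to 129 counts per library there against 575 to 590 in CYT libraries.

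Bbc3 encodes PUMA, a BH3-only protein that binds all the anti-apoptotic members. Untreated libraries held 22.5, 23.3 and 21.3 CPM, and CYT libraries 92.9, 110 and 123 CPM. The groups did not overlap, and the log2 fold change was 2.28 (SE 0.11, adjusted p = 5.6e-10). After preconditioning CYT brought Bbc3 to 38.4, 34.8 and 33.5 CPM, a level between those of the untreated and CYT libraries with no overlap with either. It was lower than in CYT cells (log2 fold change -1.61, SE 0.11, adjusted p = 6.0e-08) and higher than in untreated cells (0.67, SE 0.11, adjusted p = 3.9e-04). IL-1βlow alone gave 27.3, 26.1 and 24.0 CPM, a log2 fold change of 0.21 (SE 0.11, adjusted p = 0.41).

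Bid, whose product is cut by caspase-8 and links death receptors to mitochondria, followed the same order. It was at 16.1, 16.3 and 16.3 CPM in untreated, 62.2, 77.8 and 77.0 CPM in CYT and 30.4, 37.7 and 32.7 CPM in IL-1βlow + CYT libraries. These 3 groups were fully separated. The log2 fold change was 2.16 with CYT (SE 0.11, adjusted p = 1.3e-09) and -1.11 for IL-1βlow + CYT vs. CYT (SE 0.11, adjusted p = 1.9e-06). Bid remained 1.05 above untreated cells on the log2 scale after both treatments (SE 0.11, adjusted p = 7.5e-06). It was the 1 member to pass the thresholds in that comparison, and without IL-1βlow + CYT replicate 2 its value was 0.96, under the fold minimum. With IL-1βlow alone it was at 19.0, 20.5 and 21.0 CPM, all above the untreated libraries, with a log2 fold change of 0.31 that did not pass the test (SE 0.11, adjusted p = 0.25).

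Bcl2l11 and Bad, the remaining BH3-only members, did not share this pattern. Bcl2l11 encodes BIM, a direct activator of BAX, and ran from 28.9 to 42.2 CPM in untreated, 46.2 to 52.3 in IL-1βlow, 28.4 to 36.7 in CYT and 41.3 to 49.9 in IL-1βlow + CYT libraries. Both preconditioned groups were thus above the CYT libraries. The log2 fold change was -0.14 with CYT (SE 0.14, 95% confidence interval -0.44 to 0.15, adjusted p = 0.37) and 0.46 for IL-1βlow + CYT vs. CYT (SE 0.14, adjusted p = 0.012, or 0.0039 with the replicate number as a block). With IL-1βlow alone Bcl2l11 had the largest difference of any member, 0.48 (SE 0.14), with every treated library above every untreated one, but an adjusted p of 0.12 over all genes. Bad, which is held inactive by survival-factor kinases, was at 44.0 to 47.6 CPM in untreated, 44.5 to 53.9 in IL-1βlow, 26.3 to 38.8 in CYT and 41.3 to 48.8 in IL-1βlow + CYT libraries. Its CYT libraries were all below the others, with a log2 fold change of -0.44 vs. untreated (SE 0.13). The adjusted p was 0.0103, just outside the limit used. It was 5.5e-04 with the block, though same-numbered libraries did not deviate together throughout in pairs with untreated libraries. IL-1βlow + CYT vs. CYT gave 0.44 (SE 0.13, adjusted p = 0.013, or 8.0e-04 with the block).

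Bcl2, the founding anti-apoptotic member, moved opposite to Hrk, Bbc3 and Bid. Untreated libraries held 11.5, 9.53 and 9.97 CPM, CYT libraries 5.11, 4.43 and 3.58 CPM, and IL-1βlow + CYT libraries 9.73, 10.2 and 11.1 CPM. The CYT libraries were below all others, while the preconditioned and challenged libraries fell in the untreated range. The log2 fold change was -1.24 with CYT (SE 0.15, adjusted p = 7.2e-06) and 1.25 for IL-1βlow + CYT vs. CYT (SE 0.15, adjusted p = 1.3e-05). Against untreated cells IL-1βlow + CYT gave 0.01 (95% confidence interval -0.30 to 0.31). IL-1βlow alone left Bcl2 at 10.2, 11.0 and 11.0 CPM (0.05, SE 0.14, adjusted p = 0.88). Bcl2 rested on 70 to 94 counts in CYT libraries and 160 to 206 elsewhere.

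Bcl2l1, whose long product Bcl-xL is a guardian of the mitochondrion, moved in the direction of the pro-apoptotic genes. It was at 129, 131 and 131 CPM in untreated, 143, 148 and 125 CPM in IL-1βlow, 206, 262 and 234 CPM in CYT and 130, 133 and 121 CPM in IL-1βlow + CYT libraries. CYT raised it in each library, with a log2 fold change of 0.85 (SE 0.09, adjusted p = 2.7e-06), and IL-1βlow + CYT cells were lower than CYT cells (-0.87, SE 0.09, adjusted p = 4.4e-06). Both values were under the fold minimum. Reads were summed over the gene, so the long anti-apoptotic and short pro-apoptotic isoforms were not separated. Mcl1, a short-lived guardian protein, differed least of the 3 in CYT vs. untreated and IL-1βlow + CYT vs. CYT cells. It ran from 57.7 to 62.6 CPM in untreated, 59.9 to 66.1 in IL-1βlow, 64.1 to 85.4 in CYT and 70.1 to 81.5 in IL-1βlow + CYT libraries. The log2 fold change was 0.28 with CYT (SE 0.10, adjusted p = 0.030) and 0.04 for IL-1βlow + CYT vs. CYT (95% confidence interval -0.19 to 0.26). For IL-1βlow + CYT vs. untreated it was 0.32 (SE 0.10, adjusted p = 0.043), against 0.01 for Bcl2 and -0.02 for Bcl2l1.

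The pore-forming members differed from each other. Bax was at 71.6, 67.4 and 72.6 CPM in untreated, 80.6, 92.5 and 70.3 CPM in IL-1βlow, 161, 175 and 156 CPM in CYT and 104, 111 and 95.3 CPM in IL-1βlow + CYT libraries. The CYT libraries were above all others, and the IL-1βlow + CYT libraries lay between them and the unchallenged ones. The log2 fold change was 1.22 with CYT (SE 0.10, adjusted p = 1.3e-07), -0.66 for IL-1βlow + CYT vs. CYT (SE 0.10, adjusted p = 8.0e-05) and 0.56 for IL-1βlow + CYT vs. untreated (SE 0.10, adjusted p = 8.8e-04). Bak1 ran from 77.3 to 79.2 CPM in untreated, 82.7 to 95.6 in IL-1βlow, 112 to 129 in CYT and 97.6 to 122 in IL-1βlow + CYT libraries, so both challenged groups were above the untreated libraries and overlapped each other. It rose by 0.60 with CYT on the log2 scale (SE 0.10, adjusted p = 1.1e-04) and by 0.54 with IL-1βlow + CYT (SE 0.10, adjusted p = 9.4e-04), and IL-1βlow + CYT vs. CYT gave -0.06 (95% confidence interval -0.27 to 0.15, adjusted p = 0.62).

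**Figure D2:**
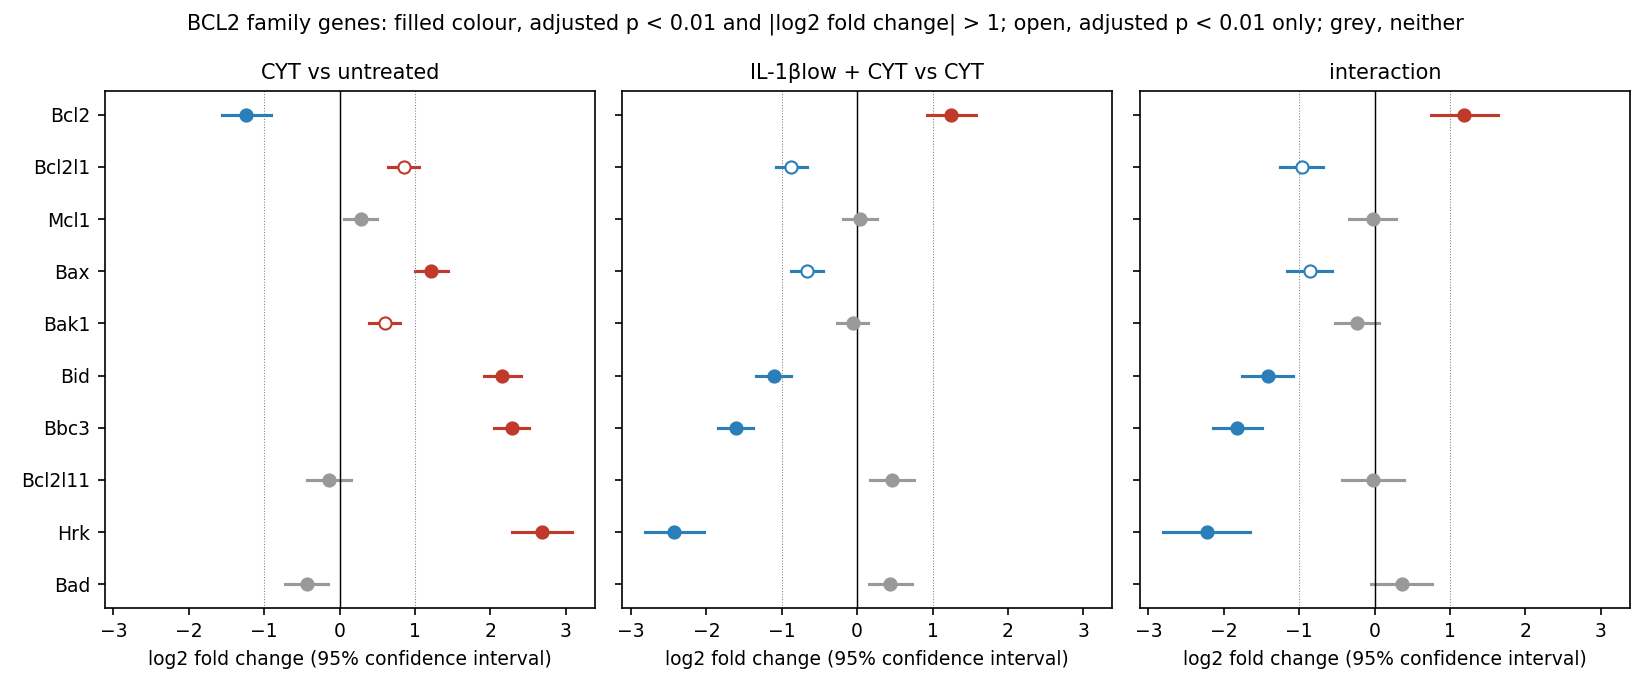
Log2 fold change of the 10 members (points) with its 95% confidence interval (lines) for CYT vs. untreated, IL-1βlow + CYT vs. CYT and the interaction, which is the CYT effect in preconditioned cells less that in naive cells; filled colour marks an adjusted p under 0.01 with a log2 fold change above 1 in size, open symbols an adjusted p under 0.01 alone, and dotted lines the fold minimum. Hrk, Bbc3 and Bid lay above 2 in the first panel and below -1 in the other panels, and Bcl2 lay on the opposite side each time.

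Preconditioned and naive challenged cells differed in 6 of the 10 members: Bcl2 was higher in IL-1βlow + CYT than in CYT cells, and Bcl2l1, Bax, Bid, Bbc3 and Hrk were lower. Of these, Bcl2, Bid, Bbc3 and Hrk passed the thresholds. The shares over all genes tested were 36.3% at an adjusted p under 0.01 and 12.5% with the fold minimum. By class, 3 of 5 BH3-only members were lower and none was higher, with a median log2 fold change of -1.11. Of the multi-domain members 1 was higher and 2 were lower, with a median of -0.06, and the median over all genes was 0.02. With the replicate number as a block Bcl2l11 and Bad joined as higher, which made 8 of 10 with an adjusted p under 0.01, while the share over all genes in that fit was 45.3%.

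The interaction tested the same question directly, as the difference between the CYT effect with and without preconditioning. It had an adjusted p under 0.01 for 6 members and passed the fold minimum for 4: Hrk at -2.23 (SE 0.27, adjusted p = 3.7e-05), Bbc3 at -1.82 (SE 0.15, adjusted p = 2.4e-06), Bid at -1.42 (SE 0.16, adjusted p = 1.9e-05) and Bcl2 at 1.19 (SE 0.21, adjusted p = 6.1e-04). Over all genes these shares were 22.6% and 10.7%. Bcl2l1 (-0.97, SE 0.13) and Bax (-0.86, SE 0.14) passed on the adjusted p alone. For Bak1 the interaction was -0.24 (95% confidence interval -0.53 to 0.06, adjusted p = 0.19), so a weaker CYT effect on Bak1 after preconditioning was not shown and one of up to 0.53 on the log2 scale was not excluded by the interval.

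Relative to untreated cells, IL-1βlow + CYT cells were higher in 4 members, Bax, Bak1, Bid and Bbc3, and lower in none. Over all genes 13.8% were called in this comparison and 5.99% passed the fold minimum, against 1 member, Bid. Set over the change with CYT alone, the log2 change kept after preconditioning was 9.66% for Hrk (5.26% to 15.9% with one library left out at a time), 29.3% for Bbc3 (26.3% to 31.1%), 45.6% for Bax (41.1% to 50.3%), 48.7% for Bid (44.5% to 51.2%) and 89.8% for Bak1 (79.8% to 106% in that range). For Bcl2 it was -0.453% (-5.54% to 5.08%) and for Bcl2l1 -2.76% (-6.68% to 1.98%). Taken against IL-1βlow in place of untreated libraries, the share was 17.0% for Hrk, 20.2% for Bbc3, 29.1% for Bax, 34.2% for Bid, 60.3% for Bak1, 3.93% for Bcl2 and -13.9% for Bcl2l1. The shares were not tested against each other.

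Measured from IL-1βlow cells, the challenge raised Bid (0.74, SE 0.11, adjusted p = 3.1e-04) and Bbc3 (0.46, SE 0.11, adjusted p = 0.0097), and no member passed the fold minimum by this test, by DESeq2 or by edgeR's exact test. Over all genes 8.2% had an adjusted p under 0.01 and 3.88% passed the fold minimum. The Bbc3 value was at the limit, and its adjusted p was between 0.011 and 0.057 in 8 alternative analyses, among them those without any 1 of the IL-1βlow libraries or without IL-1βlow + CYT replicate 1 or 2, which left Bid alone or, without IL-1βlow replicate 2, Bid and Bax. With the replicate number as a block, Bax (0.36, adjusted p = 0.0053) and Bak1 (0.36, adjusted p = 0.0037) also rose, which made 4 members, against 11.8% of all genes in that fit. Unadjusted p-values under 0.05 were found for 6 members and for 23.6% of all genes.

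IL-1βlow alone called none of the 10 members by edgeR's quasi-likelihood test, and neither did DESeq2 or edgeR's exact test. Over all genes 0.503% were called and 0.433% passed the fold minimum of 0.6. Bid and Bcl2l11 (2 of 10) had an unadjusted p under 0.05, as had 13.8% of all genes. The log2 fold changes ran from -0.20 (Hrk) to 0.48 (Bcl2l11), and 9 of 10 were positive, as were 7264 of all 14324 genes tested. Without the filter on low counts Bcl2l11 was called (log2 fold change 0.50, adjusted p = 0.0057 by the quasi-likelihood test), against an adjusted p of 0.12 with it. The 95% confidence intervals for Bcl2l11 (0.19 to 0.77) and Bid (0.07 to 0.56), with the filter, lay above 0.

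Ratios of pro- to anti-apoptotic transcripts within a library need no scaling between libraries. They are ratios of read counts, which also depend on the lengths of both transcripts, so they are read only between groups. Bax/Bcl2 was 6.25, 7.07 and 7.29 in untreated, 31.5, 39.5 and 43.5 in CYT, and 10.7, 10.9 and 8.57 in IL-1βlow + CYT libraries. The ratio was 5.52-fold higher with CYT, and in IL-1βlow + CYT libraries it was above the untreated and well below the CYT range. Hrk/Bcl2 had the widest swing, from a mean of 0.485 ± 0.127 (SD, n = 3) in untreated to 7.41 ± 1.02 in CYT and 0.568 ± 0.0865 in IL-1βlow + CYT cells. Bbc3/Bcl2 went from 2.18 ± 0.241 to 25.8 ± 8.09 and 3.45 ± 0.469, and Bbc3/Mcl1 from 0.371 ± 0.0128 to 1.5 ± 0.200 and 0.477 ± 0.0591. None of these CYT ranges overlapped another group.

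Ratios to Bcl2l1 behaved differently. Bcl2l11/Bcl2l1 was lower in CYT cells (0.138 ± 0.0182) than in untreated (0.274 ± 0.0534) or IL-1βlow + CYT cells (0.347 ± 0.0358). Bax/Bcl2l1 was 0.543 ± 0.0238 in untreated and 0.704 ± 0.0659 in CYT cells, and at 0.810 ± 0.0233 in IL-1βlow + CYT cells it was not lower than in CYT cells but above all 3 of those libraries. Bcl2l1 itself was lower in IL-1βlow + CYT than in CYT cells. For all 6 ratios the exact two-sided permutation test gave p = 0.1 for CYT vs. untreated and for IL-1βlow + CYT vs. CYT, the smallest that 3 against 3 libraries allow, or 0.138 adjusted over the 18 tests made, so no ratio could pass a threshold of 0.05.

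**Figure D3:**
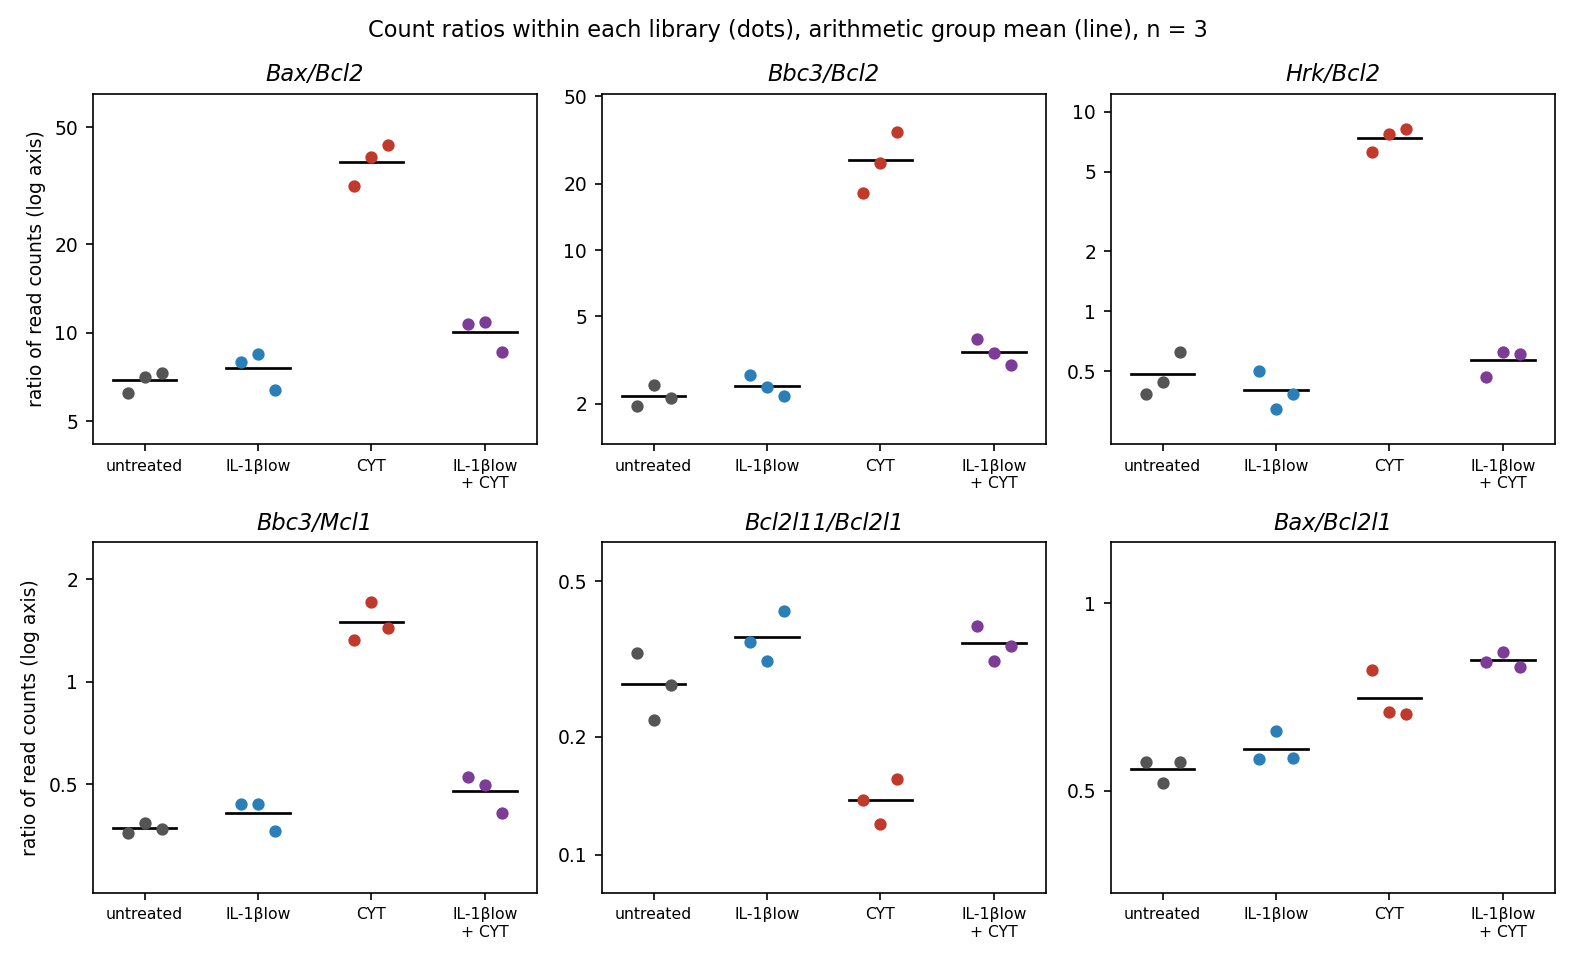
Ratios of read counts of a pro-apoptotic to an anti-apoptotic member within each library (dots, log axis), with the arithmetic mean of 3 libraries (line). Bax/Bcl2, Bbc3/Bcl2, Hrk/Bcl2 and Bbc3/Mcl1 were highest in CYT cells, Bcl2l11/Bcl2l1 was lowest there, and Bax/Bcl2l1 was highest in IL-1βlow + CYT cells.

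The rest of the family was scored as a list of 14 genes, of which 9 passed the filter. With CYT 5 of the 9 rose and none fell, a share close to the 49.7% called over all genes, and so not a result about this list. Bcl2l14 (BCL-G) rose from 8.03 ± 1.38 to 29.6 ± 1.60 CPM (log2 fold change 1.88, SE 0.15, adjusted p = 1.0e-07), Bok, a BAX-like effector, from 11.6 ± 0.310 to 27.3 ± 3.57 CPM (1.23, SE 0.13, adjusted p = 1.3e-06), and Bmf, a BH3-only protein, from 6.06 ± 1.13 to 13.7 ± 0.435 CPM (1.18, SE 0.18, adjusted p = 4.5e-05). In IL-1βlow + CYT vs. CYT cells 5 of the 9 were lower and none was higher, against 36.3% called over all genes, with Bmf at -1.56 (SE 0.18, adjusted p = 7.6e-06) and Bcl2l14 at -1.01 (SE 0.15, adjusted p = 5.8e-05). Bmf, at 4.67 ± 0.770 CPM in IL-1βlow + CYT cells, was thus a 4th BH3-only gene that was higher with CYT and lower in preconditioned cells. The 5 genes that did not pass the filter were Bcl2a1, Bcl2l10, Bcl2l15, Bik and Pmaip1 (NOXA), with at most 9 counts in any library. Pmaip1 was at 0 in every library. Bcl2a1, an NF-κB target, was at 0 in all untreated and IL-1βlow libraries and was detected in both challenged groups, at up to 6 counts in CYT libraries and at 3, 4 and 3 counts in IL-1βlow + CYT libraries.

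Downstream of the mitochondrion, 12 effector genes were measured and CYT moved 6, with 3 higher and 3 lower, which was close to the 49.7% called over all genes and is not a result about this list. Apaf1, the scaffold of the apoptosome, went from 19.7 ± 1.54 to 13.9 ± 1.70 CPM (log2 fold change -0.50, SE 0.12, adjusted p = 0.0025), and Htra2, a mitochondrial protease, from 39.9 ± 2.78 to 65.7 ± 6.45 CPM (0.72, SE 0.09, adjusted p = 1.3e-05). Both were under the fold minimum. In IL-1βlow + CYT vs. CYT cells 2 of 12 were higher and none was lower, against 36.3% called over all genes. Apaf1 was 1 of these, at 20.6 ± 1.3 CPM in IL-1βlow + CYT cells (0.56, SE 0.12, adjusted p = 0.0015).

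Of 13 transcription factors known to act on BCL2 family genes, 10 rose with CYT and 2 fell, and 8 were lower and 1 higher in IL-1βlow + CYT vs. CYT cells. Over all genes 49.7% and 36.3% were called in these comparisons. Ddit3 (CHOP) went from 13 ± 1.42 CPM in untreated to 299 ± 29.9 in CYT and 28 ± 7.90 in IL-1βlow + CYT cells, with log2 fold changes of 4.52 (SE 0.18) with CYT and -3.42 (SE 0.17) for IL-1βlow + CYT vs. CYT. Atf3 went from 2.87 ± 0.785 to 65.2 ± 8.31 and 2.74 ± 0.332 CPM (4.50 and -4.57), and Atf4 from 169 ± 11.2 to 699 ± 27.5 and 191 ± 18.7 CPM (2.05 and -1.87). Junb (2.89 and -1.10) passed the thresholds in both comparisons as well. Among those that passed them with CYT alone were Jun (1.83) and Nfkb1 (1.95).

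Among 8 genes whose products act on BCL2 family proteins, 4 fell with CYT and none rose, and 4 were higher and none lower in IL-1βlow + CYT vs. CYT cells. With 49.7% and 36.3% of all genes called in these comparisons, the share with CYT was close to the background and is not a result about this list. Dynll1, a dynein light chain that tethers BIM, went from 198 ± 11.9 to 68.3 ± 17.0 and 199 ± 16.5 CPM, with log2 fold changes of -1.54 (SE 0.13, adjusted p = 2.3e-07) and 1.54 (SE 0.13, adjusted p = 6.7e-07). Usp9x, a deubiquitinase of MCL1, fell by 1.02 on the log2 scale with CYT (SE 0.16, adjusted p = 6.1e-05).

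**Figure D4:**
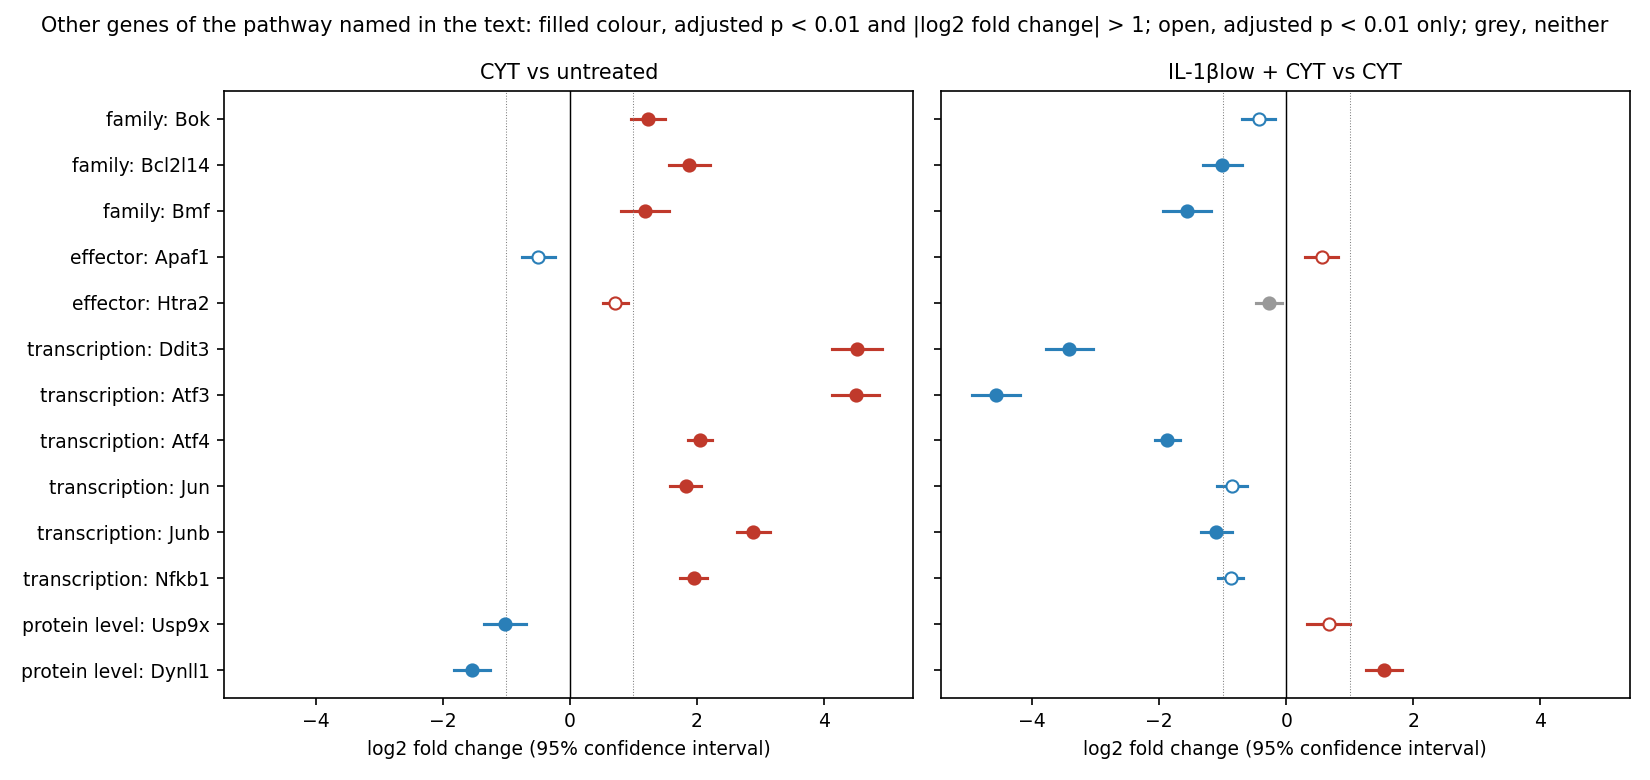
Log2 fold change (points) with its 95% confidence interval (lines) of the other genes of the pathway named in the text, by list: other family genes, effectors downstream of the mitochondrion, transcription factors and regulators of the proteins; colours and symbols as for the members. Ddit3 and Atf3 lay furthest to the right with CYT (4.52 and 4.50) and furthest to the left for IL-1βlow + CYT vs. CYT.

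Over the 12 libraries, which fall into 4 groups, the members' log2 CPM values moved together in part. Pearson's r was 0.973 for Bax and Bid, 0.970 for Bid and Bbc3 and 0.95 for Bbc3 and Hrk, and it was -0.953 for Bcl2 and Bbc3 and -0.954 for Bcl2 and Bcl2l1. These values describe 4 group levels more than 12 independent points. Among 11496 genes compared, those most like Hrk were Ciart (r = 0.989), Ank2 (0.988) and LOC100911534 (0.987). Those most like Bbc3 were Tjp3 (0.997), Flrt1 (0.995) and Maff (0.993), and those most like Bcl2 were Pcyt1b (0.994), Morc2 (0.993) and Srsf6 (0.989). Likeness in r did not mean likeness in size: with CYT Morc2 fell by 0.41 on the log2 scale and Pcyt1b by 1.95, against 1.24 for Bcl2.

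Some members share their locus with another annotated gene. In GRCr8 Bcl2 and Bak1 overlap long non-coding RNAs, Bcl2l1 a ribosomal protein pseudogene and Bcl2l11 the gene Acoxl, which had a median of 3 counts per library, while Mcl1, Bax, Bid, Bbc3, Hrk and Bad overlap none. The strand setting of the counting was not given in the sources used here, so reads of overlapping partners of Bcl2 and Bak1 may not have been told apart.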

How the data were processed

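Bulk RNA-seq libraries (TruSeq) from 12 INS-1E cultures, labelled as 3 biological replicates of 4 groups, were sequenced by the authors, who used FastQC for read quality, rfastp for trimming, Rsubread for alignment against the mRatBN7.2 assembly, and featureCounts for counting per gene. The deposited values are raw counts per gene symbol, not normalized. Reads carry no molecular identifiers, so depth bounds counting error only. All 12 columns were matched to samples by name.

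The filter required CPM over 1 in 2 or more libraries and left 14324 genes, for which TMM factors were calculated (R 4.3.3, edgeR 4.0.16). All 12 libraries entered one quasi-likelihood fit (glmQLFit, glmQLFTest; 8 residual degrees of freedom), with Benjamini-Hochberg adjustment over all genes. On data simulated for CYT vs. untreated, 186 of 200 genes changed by 1.5 on the log2 scale passed the thresholds in the set direction. Of the unchanged genes 0 passed them. Only these 200 genes were changed, against 49.7% of all genes with an adjusted p under 0.01 in the data. The rule of an adjusted p alone was not checked in this way. Thresholds and filter follow the study's methods. The exact test of edgeR, DESeq2 1.42.0, RLE scaling, other filters, a replicate block and leaving out each library were alternatives. Every member is named. Other genes of the pathway are named where they passed the thresholds in CYT vs. untreated or IL-1βlow + CYT vs. CYT, with further values of 2 effector genes chosen after their values were seen, and a few genes and a further motif that was searched are not reported here, and for Hrk, Bbc3 and Bcl2 the 3 genes with the highest Pearson's r of log2 CPM (mean above 2) are given. The members and lists were chosen with earlier results of these data known.

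Same-numbered libraries deviated together between the IL-1βlow, CYT and IL-1βlow + CYT groups. The correlations of deviations were from 0.116 to 0.520 over 3 numbers in each of 3 pairs of groups. Blocked values are therefore printed for those comparisons where a call changed, and also for Bad in CYT vs. untreated. The pairing comes from the replicate numbers in the labels and this check. In pairs with untreated libraries the correlations were mixed in sign, from -0.188 (number 3, with IL-1βlow) to 0.181 (number 2, with CYT).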

Additional observations from a re-analysis of the deposited data

Results flagged for a closer look

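Members were singled out where the effect of CYT differed between preconditioned and naive cells by the interaction test of edgeR, with a size above 1 on the log2 scale. Hrk had a log2 fold change with CYT of 2.69 in naive cells and 0.46 in preconditioned cells. The value in preconditioned cells did not pass the quasi-likelihood test (adjusted p = 0.17). The difference for Hrk was -2.23 (adjusted p = 3.7e-05). For Bbc3 the effects were 2.28 and 0.46, a difference of -1.82 (adjusted p = 2.4e-06). For Bid they were 2.16 and 0.74, a difference of -1.42 (adjusted p = 1.9e-05). Bcl2 differed in the other direction, with effects of -1.24 and -0.05 and a difference of 1.19 (adjusted p = 6.1e-04). The summed β-cell markers differed along with these genes, at 10663 to 10969.1 CPM in CYT and 15523.5 to 20131.9 CPM in IL-1βlow + CYT libraries, and the part of this in the differences was not tested.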

How the results depend on the processing

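The 5 members past the thresholds with CYT and the 4 in IL-1βlow + CYT vs. CYT stayed at these counts under RLE scaling, DESeq2, the exact test, both filters, the block, the 2 groups alone and each library left out. Of 820 fitted values under alternatives, 29 changed sign, 0 of them among the 349 with an adjusted p under 0.01 as reported. With an adjusted p under 0.05 and no fold minimum, the counts past the thresholds became 9 for CYT vs. untreated (62.3% of all genes), 8 for IL-1βlow + CYT vs. CYT (50.7%), 5 for IL-1βlow + CYT vs. untreated (21.8%) and 4 for IL-1βlow + CYT vs. IL-1βlow (13%). Leaving out a library gave 0 to 1 members past the thresholds for IL-1βlow + CYT vs. untreated, with 0 only without IL-1βlow + CYT replicate 2. For IL-1βlow + CYT vs. IL-1βlow the 2 members with an adjusted p under 0.01 became 1 with RLE scaling, with at least 10 counts in every library and with the 2 groups alone, 4 with the replicate block, 4 at an adjusted p under 0.05, and 1 to 3 without one library. For IL-1βlow vs. untreated, no filter gave 1 member, Bcl2l11 (adjusted p = 0.0057). For CYT vs. untreated, Mcl1 reached an adjusted p of 0.0073 without the filter and 0.0095 without CYT replicate 2, and Bad reached 0.0045 to 0.00998 with DESeq2, the exact test and both filters and 0.0059 without CYT replicate 2. In IL-1βlow + CYT vs. CYT, Bcl2l11 and Bad were also under 0.01 with the exact test, with no filter and without IL-1βlow + CYT replicate 3, Bcl2l11 with DESeq2 and without CYT replicate 3, and Bad without CYT replicate 2. In IL-1βlow + CYT vs. IL-1βlow, Bak1 was under 0.01 with the exact test, with no filter and without IL-1βlow + CYT replicate 3, and Bax without IL-1βlow replicate 2. The interaction of Bcl2l1 passed the fold minimum with RLE scaling (-1.0), with DESeq2 (-1.0) and with no filter (-1.02), and without CYT replicate 1 (-1.08), IL-1βlow + CYT replicate 1 (-1.01), untreated replicate 2 (-1.01) or IL-1βlow replicate 3 (-1.04). Measured from IL-1βlow libraries, the share kept was -13.9% for Bcl2l1, 3.93% for Bcl2, 17.0% for Hrk, 20.2% for Bbc3, 29.1% for Bax, 34.2% for Bid and 60.3% for Bak1.

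Values near 0 changed sign. For IL-1βlow + CYT vs. untreated, at least 10 counts in every library gave -0.020 for Bcl2 and -0.027 for Bad, no filter 0.017 for Bcl2l1, and the replicate block -0.0044 for Bad. Leaving out one library gave -0.065 to 0.064 for Bcl2, -0.057 to 0.017 for Bcl2l1 and -0.054 to 0.074 for Bad in that comparison. The ranges were -0.00062 to 0.13 for Bcl2 and -0.35 to 0.0024 for Hrk in IL-1βlow vs. untreated, -0.25 to 0.0079 for Bcl2l11 in CYT vs. untreated, and -0.051 to 0.13 for Mcl1 and -0.14 to 0.037 for Bak1 in IL-1βlow + CYT vs. CYT. For the interaction they were -0.11 to 0.079 for Mcl1 and -0.19 to 0.074 for Bcl2l11. The cause was not tested. Same-numbered libraries correlated at 0.191 on average (18 pairs, 13 over 0.1), and 9 of 12 libraries correlated best with their own number. With the block 8 members instead of 7 had an adjusted p under 0.01 in CYT vs. untreated (Bad, adjusted p = 5.5e-04). The share over all genes in that fit was 57.4%. Same-numbered libraries did not deviate together throughout in pairs with untreated libraries. With the block no further call changed beyond those given in the report. RLE scaling moved the median of all genes by at most 0.032 on the log2 scale. The members with the fewest counts were Hrk outside CYT cells (58 to 129 per library) and Bcl2 in CYT cells (70 to 94).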
